A study of Mus musculus with 20 samples.

Results

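Caspases are proteases that are made as inactive precursors and dismantle a cell, or release inflammatory cytokines, once an upstream complex activates them. The RNA of 8 genes of this system was followed in sorted mouse bone marrow (BM) progenitors lacking Bcor, Dnmt3a or both. The genes were chosen by symbol as a pathway, with earlier results of these data known: the initiator caspases Casp8, Casp9 and Casp2, the executioner Casp6, the inflammatory caspase Casp1, the caspase-9 adaptor Apaf1, and the inhibitors Xiap and Cflar. All 8 were found among the 24315 genes of each table, and all 8 passed the filter on low values in both cell types.

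Libraries came from LSK cells (Lin-/Sca1+/Kit+, the stem and multipotent progenitor compartment) and from MEP (Lin-/Sca1-/Kit+/CD34-/FcγRII/III lo/-, megakaryocyte-erythroid progenitors) of C57BL/6 mice. Each cell type had 10 libraries, of which 2 are labelled Bcor-/-Dnmt3a-/-, 2 Bcor-/-, 3 Dnmt3a-/- and 3 wild type (WT). Each mouse gave 1 library of either cell type. Per the study's methods both genes were conditional alleles deleted by Mx1-Cre, an interferon-inducible recombinase switched on with pIpC in blood-forming cells, and the deletion of Dnmt3a was only partial in Dnmt3a-/- mice. The labels mark Cre on every mutant library and on no WT library, so deletion and the presence of Cre cannot be told apart in a comparison with WT. One Bcor-/- library of each cell type was made from 2 mice, and the labels give neither ages nor disease stage, whereas the study describes its double knockout RNA as leukemic. The other replicates are separate mice. The sequencing depth is unknown, because FPKM (fragments scaled by transcript length and library size) were deposited without read counts.

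The groups are called by their labels here. FPKM over the whole gene, of which only a stretch is deleted, does not check a deletion: in libraries labelled Bcor-/-Dnmt3a-/- Bcor had 24.0 and 37.4 FPKM in LSK against 29.5 to 32.4 in WT, and Dnmt3a had 6.85 and 3.44 FPKM in MEP against 5.49 to 6.64 in WT. Both genes were below WT in some other libraries labelled with the deletion, with Bcor at 22.4 and 23.2 FPKM in Bcor-/- LSK, and Dnmt3a at 10.4 and 10.9 FPKM in double knockout LSK against 16.1 to 19.8 in WT. Further ones lay within the WT range. Bcor had 22.4 FPKM in Bcor-/- MEP replicate 2 and 26.7 in double knockout MEP replicate 2, against 21.3 to 26.9 in WT. Dnmt3a had 16.9 FPKM in Dnmt3a-/- LSK replicate 1. The 2 double knockout libraries were unlike each other, with a correlation of log2 values across genes of 0.849 for LSK and 0.815 for MEP. Replicates of all other genotypes correlated at 0.973 or more for LSK and 0.971 or more for MEP. They also stood apart in the markers of the sorted cells. The summed FPKM of 8 LSK markers was 178 and 372 in double knockout LSK and 1116 to 1305 in WT LSK, with 7 of the 8 below every WT library in both, Ly6a being the one that was not. The summed FPKM of 6 MEP markers was 275 and 736 in double knockout MEP and 680 to 812 in WT MEP, with all 6 below every WT library in replicate 1, and 2 below and 2 above (Gata1 and Klf1) in replicate 2, whose sum lay within the WT range. Results that rest on the double knockout are therefore given for each of its libraries.

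In the extrinsic pathway, ligand-bound death receptors recruit caspase-8, and c-FLIP, the protein of Cflar, is a catalytically dead relative of caspase-8 that competes for the same adaptor. In the intrinsic pathway, cytochrome c leaves the mitochondria and assembles Apaf1 into the apoptosome, which activates caspase-9, and caspase-9 in turn cleaves the executioners. XIAP blocks caspase-9 and some of the executioners directly. Caspase-2 is activated on the PIDDosome, a separate complex linked to DNA damage and to extra centrosomes. Caspase-1 is activated by inflammasomes and processes interleukin precursors and the pore former gasdermin D. RNA levels do not report activation, which takes place on the proteins.

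The results turn on Casp1, Xiap and Cflar in MEP and on Casp9 in LSK. Shown for these 4 genes are the 250 bases before an annotated RefSeq start. CpG dinucleotides, the bases that Dnmt3a methylates, differ widely in number between these windows. The sequences are from the RefSeq annotation of GRCm38.p6 and were found for all 8 genes. The deposited tables were made on mm9 and hold no coordinates, and methylation was not part of these data. They run 5′ to 3′ on the strand of the gene, with each CG in capitals, at chr9:5298267-5298516 on the + strand for Casp1, chrX:42068148-42068397 on the + strand for Xiap, chr1:58711241-58711490 on the + strand for Cflar and chr4:141793362-141793611 on the + strand for Casp9.
Casp1 promoter: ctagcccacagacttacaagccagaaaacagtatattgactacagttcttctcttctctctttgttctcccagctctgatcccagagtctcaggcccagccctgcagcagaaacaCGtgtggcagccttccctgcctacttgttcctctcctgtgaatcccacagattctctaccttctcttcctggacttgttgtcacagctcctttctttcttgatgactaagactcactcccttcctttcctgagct
Xiap promoter: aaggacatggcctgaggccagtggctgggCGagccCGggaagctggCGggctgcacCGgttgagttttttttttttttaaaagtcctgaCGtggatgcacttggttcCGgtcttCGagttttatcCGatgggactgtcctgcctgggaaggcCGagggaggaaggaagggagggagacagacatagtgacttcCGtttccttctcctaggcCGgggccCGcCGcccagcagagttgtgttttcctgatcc
Cflar promoter: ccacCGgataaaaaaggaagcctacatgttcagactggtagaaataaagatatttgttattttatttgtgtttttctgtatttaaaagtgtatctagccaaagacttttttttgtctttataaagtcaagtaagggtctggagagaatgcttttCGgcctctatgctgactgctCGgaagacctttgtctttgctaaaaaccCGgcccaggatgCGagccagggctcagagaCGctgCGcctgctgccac
Casp9 promoter: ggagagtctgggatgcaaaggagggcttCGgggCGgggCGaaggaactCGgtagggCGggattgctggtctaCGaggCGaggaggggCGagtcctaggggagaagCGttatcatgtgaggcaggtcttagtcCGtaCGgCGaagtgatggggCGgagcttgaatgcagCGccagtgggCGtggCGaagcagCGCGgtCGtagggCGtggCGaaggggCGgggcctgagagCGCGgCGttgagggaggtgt

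The Casp1 window held 1 CG, the Cflar window 7, the Xiap window 13 and the Casp9 window 25. The other members held 17 (Casp2), 11 (Casp6), 5 (Casp8) and 42 (Apaf1). Over the 32851 RefSeq promoter windows of this length the median was 6, with quartiles of 2 and 16, and 92.1% held at least 1. Among the genes called in MEP, Casp1 thus lay below the lower quartile, and Cflar and Xiap between the quartiles. For Xiap, 2 further RefSeq start sites are annotated, each with 1 CG in its window. The motif AGATAA, bound by GATA factors and searched on both strands, was found in the Casp8 window alone, and in 9.99% of all windows. It lay 227 bases before the RefSeq start used for Casp8. A match of these letters is a description, not a site.

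By GENCODE on GRCm38, Cflar (chr1:58711508-58758884) and Casp8 (chr1:58795374-58847503) are neighbours on the + strand with 36489 bases between them. Casp1 (chr9:5298517-5307265) lies 1562 bases before Casp4 and in the same cluster as Casp12. The remaining members are Casp2 (chr6:42264985-42282508), Casp6 (chr3:129901425-129914103), Casp9 (chr4:141793612-141815976), Apaf1 (chr10:90989311-91082770, on the - strand) and Xiap (chrX:42059679-42109656). The Xiap windows and the Casp8 window, at chr1:58802252-58802501, lie inside these gene spans and not before them. Their CG counts and the Casp8 motif therefore belong to RefSeq starts within the genes. Casp9 overlaps Cela2a and Ctrc on the opposite strand, whose reads could not be separated from its own without strand information. Both pancreatic genes were listed at 0 in all LSK libraries, and in MEP Ctrc was at 0 and Cela2a at most at 0.230 FPKM.

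In WT cells the members had different ranks in LSK and MEP. In WT LSK, Casp2 at 64.6 ± 2.24 FPKM (SD, n = 3) and Casp8 at 63.9 ± 6.61 were highest and overlapped each other. Casp1 followed at 38.9 ± 6.17 and Xiap at 23.2 ± 3.13, each apart from its neighbours. Casp6 at 16.6 ± 3.54, Cflar at 15.8 ± 1.76 and Apaf1 at 15.05 ± 1.16 overlapped, and Casp9 was lowest at 8.45 ± 0.615. FPKM is scaled by transcript length, so genes can be ranked roughly, but the annotation behind those lengths is not given.

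In WT MEP, Casp2 was again highest at 41.5 ± 2.22 FPKM (SD, n = 3). Casp6 at 23.7 ± 6.32 and Casp8 at 23.6 ± 1.55 overlapped, as did Apaf1 at 13.3 ± 1.34, Casp9 at 11.8 ± 1.49 and Xiap at 11.4 ± 2.43 in a group below them. Casp1 at 6.67 ± 1.26 and Cflar at 4.10 ± 1.30 were lowest and overlapped. Casp1 thus ranked 3 in WT LSK and 7 in WT MEP, while Casp6 went from 5 to 2, Apaf1 from 7 to 4 and Casp9 from 8 to 5. The LSK mean was 5.83 times the MEP mean for Casp1, 3.86 times for Cflar, 2.71 times for Casp8, 2.03 times for Xiap, 1.56 times for Casp2 and 1.13 times for Apaf1. Casp6 and Casp9 had the higher mean in MEP, at 1.43 and 1.39 times that of LSK. The tables of LSK and MEP were made separately, so these ratios were not tested.

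**Figure D1:**
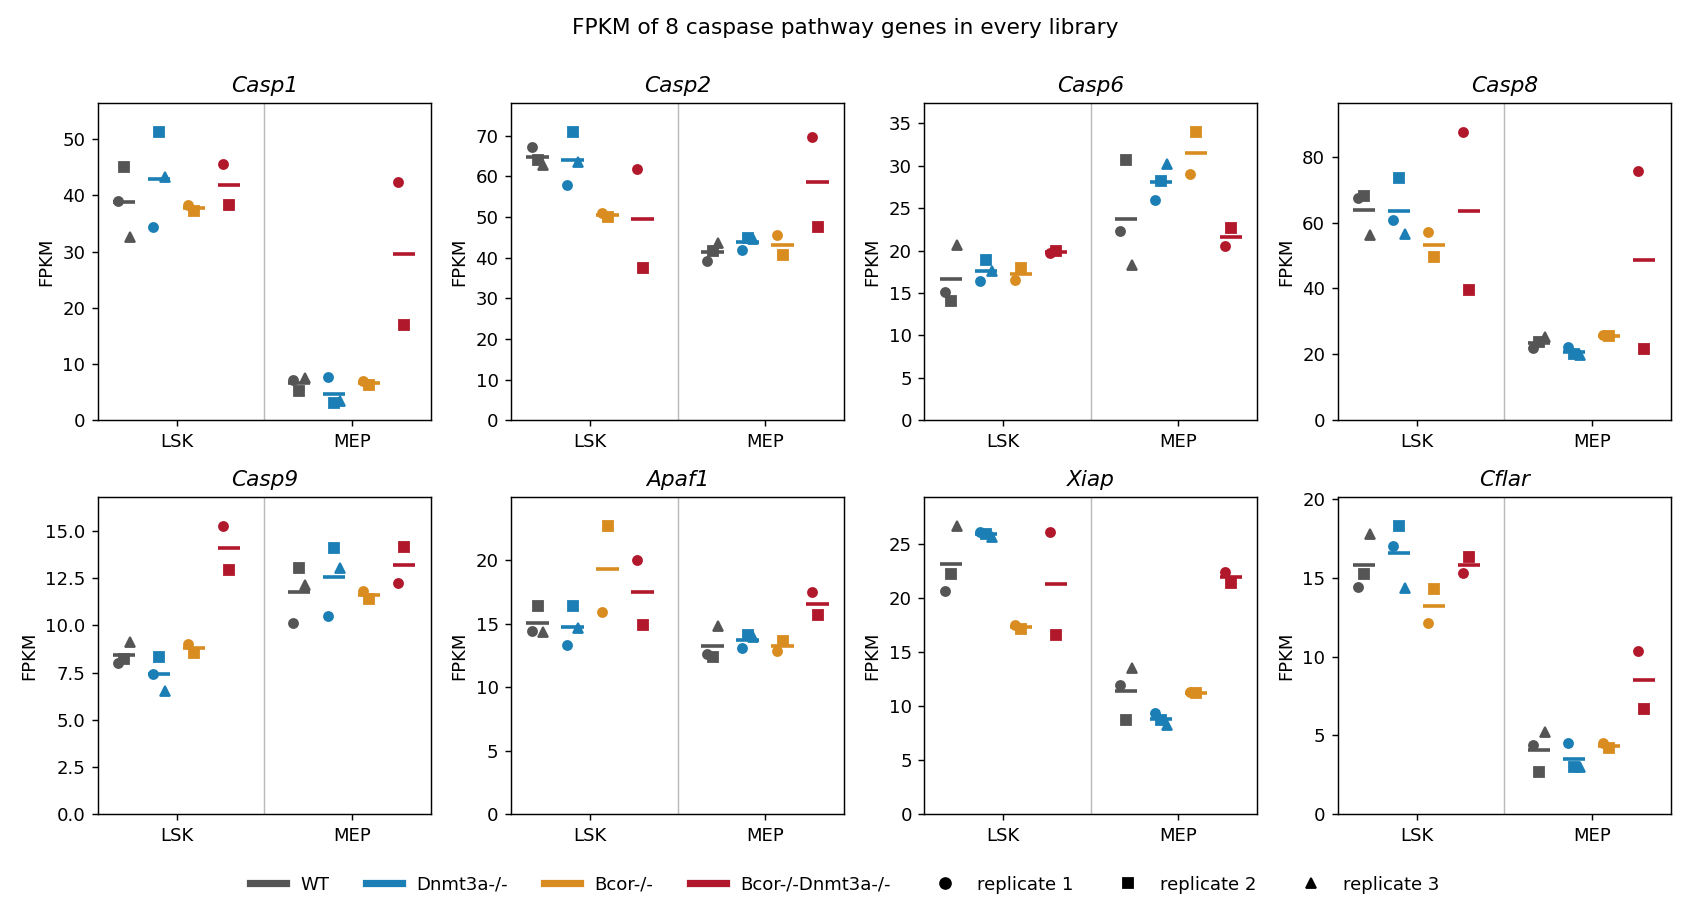
FPKM of each gene in every library (points, coloured by genotype and shaped by replicate number) with the mean of each genotype (lines), LSK on the left and MEP on the right of each panel. In MEP both double knockout libraries lie above all WT libraries for Casp1, Casp2, Apaf1, Xiap and Cflar, while Casp8 is high in 1 of them alone, and in LSK both lie above WT for Casp9.

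The main question was how the caspase genes respond when both Bcor and Dnmt3a are lost. A gene was called when limma's moderated test on log2(FPKM + 1) gave an unadjusted p under 0.05 and the fold change exceeded 1.5, the thresholds named in the study's methods, and the Benjamini-Hochberg adjusted p over all tested genes is given beside it. In double knockout MEP, 3 of 8 members were called, all higher than WT, beside 30.9% of the 10933 genes tested. By direction, 18.5% of those genes were called higher and 12.4% lower. The median log2 fold change was 0.61 over the members and 0.02 over all genes. In double knockout LSK, 1 of 8 members was called, higher than WT, beside 28.3% of 11952 genes, of which 15% were higher and 13.3% lower. The median was 0.06 over the members and 0.02 over all genes. In bulk RNA, a change in the share of cells of a type and a change of RNA per cell cannot be told apart.

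Casp1 had the largest difference of the members. In MEP the double knockout libraries had 42.3 and 17.003 FPKM, WT libraries 7.23, 5.23 and 7.55, Bcor-/- libraries 6.97 and 6.30, and Dnmt3a-/- libraries 7.73, 3.16 and 3.34. Both double knockout libraries lay above all 8 others, at 6.34 and 2.55 times the WT mean. The log2 fold change was 1.88 (SE 0.42, limma adjusted p = 0.010), and it was 1.25 without double knockout replicate 1 and 2.51 without replicate 2, past the thresholds in both cases. In LSK, where WT Casp1 was 32.7 to 45.0 FPKM, the double knockout had 45.7 and 38.2 and the log2 fold change was 0.11 (SE 0.19). Only the 42.3 FPKM of replicate 1 in MEP lay within the range listed for WT LSK, a side-by-side reading of separate tables. Casp4, a related caspase gene next to Casp1, had 21.3 and 7.94 FPKM in double knockout MEP against 3.04 to 5.43 in WT.

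Xiap, the direct inhibitor of caspase-9 and some of the executioners, had the closest double knockout values of the members in MEP. These were 22.5 and 21.4 FPKM, against 12.0, 8.76 and 13.5 in WT libraries, 11.3 and 11.2 in Bcor-/- libraries and 9.39, 8.71 and 8.24 in Dnmt3a-/- libraries. They were 1.97 and 1.87 times the WT mean, and both lay above all other MEP libraries. The log2 fold change was 0.90 (SE 0.17, limma adjusted p = 0.0049), and leaving out each library in turn gave 0.74 to 1.03, always called. In LSK the pair split, with 26.1 FPKM inside the WT range of 20.6 to 26.7 and 16.6 below it, and the log2 fold change was -0.14 (SE 0.18). Xiap is X-linked. Xist was at most 0.0649 FPKM in all 20 libraries and the Y-linked Ddx3y at least 14.8 FPKM, so all libraries had the RNA of male cells.

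Cflar, which encodes the competitor of caspase-8, was the other inhibitor called in MEP. The double knockout had 10.4 and 6.70 FPKM, WT 4.37, 2.69 and 5.25, Bcor-/- 4.49 and 4.18, and Dnmt3a-/- 4.54, 2.99 and 2.98. Both double knockout libraries lay above all others. The log2 fold change was 0.91 (SE 0.28, limma adjusted p = 0.036). It was 0.63 without double knockout replicate 1, with an unadjusted limma p of 0.074, so the call rested on that library. In LSK the double knockout and WT overlapped, with 15.3 and 16.3 FPKM in the double knockout and 14.4 to 17.8 in WT, a log2 fold change of 0.01 (SE 0.15).

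Casp8, the initiator that Cflar limits, behaved differently in the 2 double knockout mice. In MEP its FPKM was 75.8 in double knockout replicate 1 and 21.5 in replicate 2, against 22.0, 23.6 and 25.1 in WT. Replicate 1 was at 3.21 times the WT mean, and replicate 2 lay just below every WT library. In LSK of the same mice the values were 87.5 and 39.5 FPKM, above and below all 3 WT libraries at 67.4, 68.1 and 56.3. The Casp8 log2 fold change was 0.76 (SE 0.40, limma adjusted p = 0.18) in MEP and -0.11 (SE 0.28) in LSK, neither called. Without replicate 2 the value in MEP was 1.64 and called, and without replicate 1 it was -0.13. The range between both libraries on the log2 scale was 1.77 in MEP and 1.13 in LSK, where the median gene had 0.49 and 0.42.

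Casp9, the caspase of the apoptosome, was the only member called in double knockout LSK. The LSK values were 15.3 and 12.9 FPKM for the double knockout, 7.99, 8.22 and 9.15 for WT, 9.04 and 8.52 for Bcor-/-, and 7.43, 8.34 and 6.52 for Dnmt3a-/-. Both double knockout libraries lay above all 8 others, at 1.81 and 1.53 times the WT mean. The log2 fold change was 0.67 (SE 0.14, limma adjusted p = 0.0077). Without double knockout replicate 1 it was 0.56 (limma adjusted p = 0.022), below the fold threshold. After quantile normalization or centring each library on its median it was 0.58 in both cases, again just below that threshold with a limma adjusted p of 0.014 and 0.016. In MEP, Casp9 had 12.3 and 14.1 FPKM in the double knockout and 10.1 to 13.02 in WT, a log2 fold change of 0.16 (SE 0.16).

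Apaf1, the scaffold of the apoptosome, was not called in either cell type. In MEP its double knockout FPKM of 17.5 and 15.6 lay above the WT values of 12.6, 12.4 and 14.8, with a log2 fold change of 0.30 (SE 0.12, limma adjusted p = 0.082). In LSK the values were 19.99 and 14.9 FPKM against 14.3 to 16.4 in WT, and the log2 fold change was 0.19 (SE 0.18). The LSK groups overlapped.

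Casp2, the caspase of the PIDDosome, lay above WT in MEP and below it in LSK. In MEP it had 69.7 and 47.6 FPKM in the double knockout, above the WT values of 39.2, 41.5 and 43.6. In LSK it had 61.7 and 37.4 FPKM, below the WT values of 67.1, 63.9 and 62.8, although 61.7 lay close to the lowest of them. The groups did not overlap in either cell type. The log2 fold change was 0.47 in MEP (SE 0.15, limma adjusted p = 0.046) and -0.42 in LSK (SE 0.18, limma adjusted p = 0.12), and both were under the fold threshold. Without replicate 2 the MEP value was 0.74 and called, and without replicate 1 the LSK value was -0.77 and called.

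Casp6, an executioner that cleaves nuclear lamins, was not called in either cell type. In MEP the double knockout FPKM of 20.5 and 22.7 lay within the WT range of 18.2 to 30.6, and the log2 fold change was -0.10 (SE 0.19). In LSK the FPKM of 19.7 and 19.9 lay within the WT range of 14.1 to 20.6, and the log2 fold change was 0.26 (SE 0.16). Counting all members, the double knockout and WT did not overlap for 5 of 8 in MEP, where this held for 50.5% of the genes tested, and for 2 of 8 in LSK, where it held for 49.6%. A two-sided exact permutation test of single genes gave 0.10 for Casp9 in LSK and for Casp1, Xiap and Cflar in MEP. It gave 0.10 also for Casp2, which was not called, in both cell types. This is the smallest p that 2 libraries against 3 allow, so it does not set the called genes apart.

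**Figure D2:**
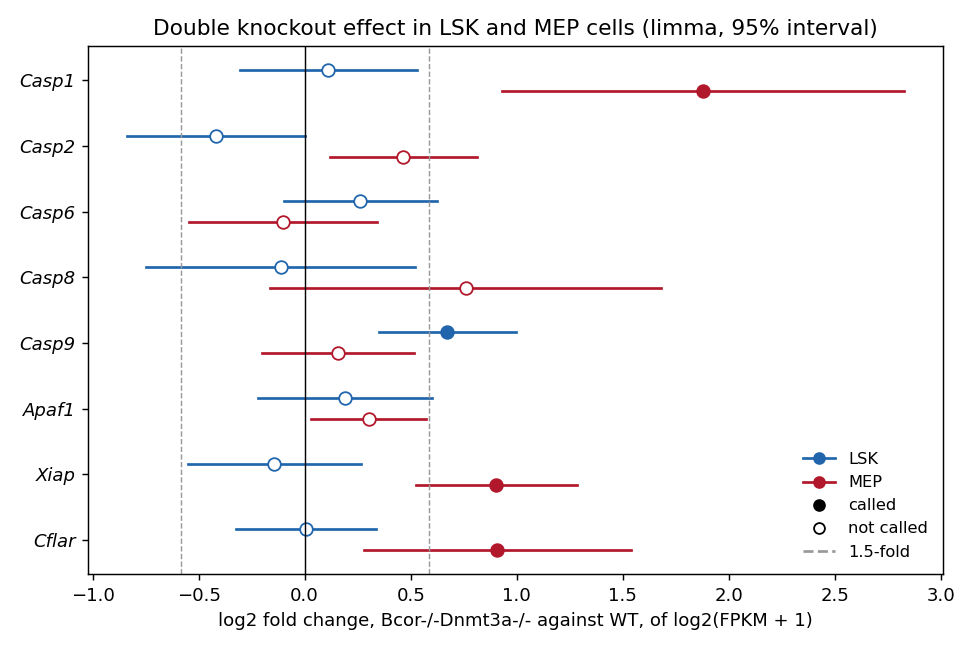
Effect of the double knockout on each gene, as the log2 difference of mean log2(FPKM + 1), in LSK (blue) and MEP (red), with limma's 95% interval as the line and filled points where called. Casp1 at 1.88, Xiap at 0.90 and Cflar at 0.91 are called in MEP and Casp9 at 0.67 in LSK, and the intervals of Casp8 are among the widest.

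The limma model pools the spread of all genotypes, and the double knockout libraries differed more between themselves than other replicates did. With 1 variance per genotype Casp9 in LSK had an unadjusted limma p of 0.040 (adjusted 0.20), Casp1 in MEP one of 0.045 (adjusted 0.25) and Xiap in MEP one of 0.039 (adjusted 0.24), so these 3 passed the unadjusted threshold alone. Cflar had a limma adjusted p of 0.43 and was no longer called.

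No member was called when 1 gene alone was lost, and none had an unadjusted limma p under 0.05 in these 4 comparisons. In Bcor-/- LSK, 0 of 8 members were called, beside 13.2% of all genes. The lowest p-values there were those of Xiap, at 17.5 and 17.2 FPKM against 20.6 to 26.7 in WT (log2 fold change -0.39, SE 0.18, limma adjusted p = 0.22), and of Casp2, at 51.1 and 50.03 FPKM against 62.8 to 67.1 (-0.35, SE 0.18, limma adjusted p = 0.28). Both lay below all WT libraries, as did Cflar at 12.1 and 14.3 FPKM against 14.4 to 17.8, and 54% of all genes did not overlap in this comparison. Marker sums moved in Bcor-/- LSK too. The summed FPKM of LSK markers was 852 and 576, against 1116 to 1305 in WT. Granulocyte and monocyte markers summed to 18828.5 and 26659.6 against 3908 to 14265, and erythroid markers to 202 and 266 against 71.8 to 157. Not every marker followed the sum of its list, and their part in these differences was not tested. In Bcor-/- MEP, 0 of 8 were called, beside 2.76% of genes. Casp6 had the lowest p there, with 29.0 and 34.0 FPKM against 18.2 to 30.6 in WT (log2 fold change 0.42, SE 0.19, limma adjusted p = 0.94). The groups did not overlap for Casp8 alone, at 26.0 and 25.5 FPKM against 22.0 to 25.1, beside 30.8% of genes.

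In Dnmt3a-/- cells, 0 of 8 members were called in LSK, beside 0.443% of genes, and 0 of 8 in MEP, beside 0.412%. Xiap in MEP had the lowest p, with 9.39, 8.71 and 8.24 FPKM against 8.76 to 13.5 in WT (log2 fold change -0.33, SE 0.15, limma adjusted p = 1). All 8 members overlapped between Dnmt3a-/- and WT in both cell types, where 9.61% of genes in LSK and 10.4% in MEP did not. The intervals were wide for Casp1 in Dnmt3a-/- MEP, from -1.34 to 0.36 on the log2 scale, and for Casp8 in Bcor-/- MEP, from -0.80 to 1.04.

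Set against Bcor-/-, which shares its Bcor deletion, the double knockout gave calls for Casp1, Xiap and Cflar in MEP and Casp9 in LSK. Casp1 (log2 fold change 1.87, limma adjusted p = 0.020), Xiap (0.91, adjusted 0.010) and Cflar (0.81, adjusted 0.083) were called in MEP, beside 27.9% of genes. Casp9 (0.62, adjusted 0.018) was called in LSK, beside 30.6%. The Cflar call was lost without either Bcor-/- library or double knockout replicate 1, with values from 0.53 to 1.09 over all libraries left out, and the Casp9 call without Bcor-/- replicate 2 or double knockout replicate 1, from 0.51 to 0.74. The groups did not overlap for 7 of 8 members in MEP, beside 59.5% of genes, and for 3 of 8 in LSK, beside 59.3%. This comparison shares its double knockout libraries with that against WT. Casp6 in MEP, under the fold threshold, had a log2 fold change of -0.52 against Bcor-/- (SE 0.21, limma adjusted p = 0.11), with 20.5 and 22.7 against 29.0 and 34.0 FPKM.

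Whether an effect differed between LSK and MEP was tested on the log2 difference between the LSK and the MEP library of each mouse, which removes any constant scale difference between both tables. For the double knockout the LSK effect was lower than the MEP effect by 1.77 for Casp1 (SE 0.54, limma adjusted p = 0.048), by 0.88 for Casp2 (SE 0.15, adjusted 0.0084), by 0.87 for Casp8 (SE 0.26, adjusted 0.042) and by 1.05 for Xiap (SE 0.22, adjusted 0.015). These 4 of 8 members passed an adjusted p of 0.05, beside 20% of 10773 genes tested in both. Cflar (lower by 0.90, SE 0.31, adjusted 0.067) and Casp9 (LSK higher by 0.51, SE 0.19, adjusted 0.077) did not pass, nor did Casp6 and Apaf1, and 37.1% of genes had an unadjusted p under 0.05. With 1 variance per genotype 0 of 8 passed, those 4 having an adjusted p from 0.27 for Casp2 to 0.46 for Casp1, and limma's unadjusted p was under 0.05 for Casp2 and Xiap alone. The Casp2 difference passed without each mouse in turn. The Casp1 difference did not pass without any one WT mouse (adjusted p 0.061 to 0.14) or without double knockout replicate 1 (0.15), the Casp8 difference without WT replicate 1 (0.12), WT replicate 2 (0.11) or double knockout replicate 1 (0.13), and the Xiap difference without WT replicate 2 (0.052). For Bcor-/- and Dnmt3a-/- no member passed, beside 0.251% and 0% of genes, and at an unadjusted p under 0.05 each had 1, Casp2 for Bcor-/- (-0.40, beside 17.9% of genes) and Xiap for Dnmt3a-/- (0.49, beside 3.9%).

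Markers of other blood cells moved with the double knockout, and their part in the results was not tested. In double knockout MEP replicate 1 all 7 macrophage markers, among them C1qa, C1qb and Adgre1, lay above every WT library with a summed FPKM of 806, against 2.10 to 3.66 in WT, and all 8 B cell markers did so with 2842 against 31.2 to 177. That library held the highest Casp1, Casp8, Casp2, Cflar, Xiap and Apaf1 of all MEP libraries. In replicate 2 the macrophage sum was 8.59, also above WT, with 6 of 7 markers above every WT library, where the 3 Dnmt3a-/- sums were 4.77 to 8.54 and the Bcor-/- sums 1.87 and 1.89. There the B cell sum was 122, within the WT range, with 4 of 8 markers above and 3 below every WT library, and Rag1 was listed at 0. In the same library Casp1 was 17.003 FPKM, Cflar 6.70 and Xiap 21.4, all still above WT, while Casp8 was not.

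Granulocyte and monocyte markers were raised in both double knockout MEP libraries, at 7161 and 16242 summed FPKM against 339 to 822 in WT, with 9 and 13 of 13 genes above all WT libraries. Erythroid markers summed to 3669 and 66887 against 1022 to 1565, with 4 and 8 of 10 above all WT libraries, 4 and 1 below, and Hbb-b1 listed at 0 in replicate 2, where Hba-a1 had 55204 FPKM. T and NK markers (127 and 290 against 38.4 to 72.4) and dendritic cell markers (850 and 410 against 189 to 322) were also above WT, and megakaryocyte markers (18.9 and 72.0 against 88.9 to 349) were below. In double knockout LSK, where Casp9 was called, all 10 erythroid markers lay above WT in both libraries, with sums of 5428 and 20597 against 71.8 to 157. B cell sums were 3476 and 1122 against 43.3 to 102, with all 8 markers above every WT library in replicate 1, and 5 above and 3 below (Vpreb1, Igll1 and Rag1) in replicate 2. Dendritic cell sums were 1647 and 4205 against 253 to 686, and the macrophage sum was high in replicate 1 alone, 1515 against 33.9 to 296 in WT. Of 9 T and NK markers 8 lay above every WT library in both, such as Cd3g at 12.3 and 57.3 FPKM against at most 0.855, although their sums of 139 and 415 against 216 to 244 followed Nkg7, at 56.8 and 162 against 207 to 228. Sums of granulocyte and monocyte markers, 8827 and 9605, lay inside the WT range of 3908 to 14265, with 2 of 13 above every WT library in each, Cd14 in both, and 5 below in replicate 1. Megakaryocyte sums were 15.1 and 57.0 against 157 to 198.

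Among WT and Dnmt3a-/- MEP, Casp1, Cflar and Xiap were low where Cd34 was low. Cd34, which the MEP gate selects against, was 5.4 FPKM in WT replicate 2 and 4.5 and 6.1 in Dnmt3a-/- replicates 2 and 3, and 23.9 to 60.6 in the other WT and Dnmt3a-/- libraries. The same 3 libraries had the lowest Casp1 of all MEP libraries, at 3.16 to 5.23 FPKM, the lowest Cflar, at 2.69 to 2.99, and the lowest Xiap, at 8.24 to 8.76. In the double knockout Cd34 was 7.02 and 13.8 FPKM beside high Casp1, Cflar and Xiap. The part of Cd34+ cells in the comparison of Dnmt3a-/- with WT was not tested.

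**Figure D3:**
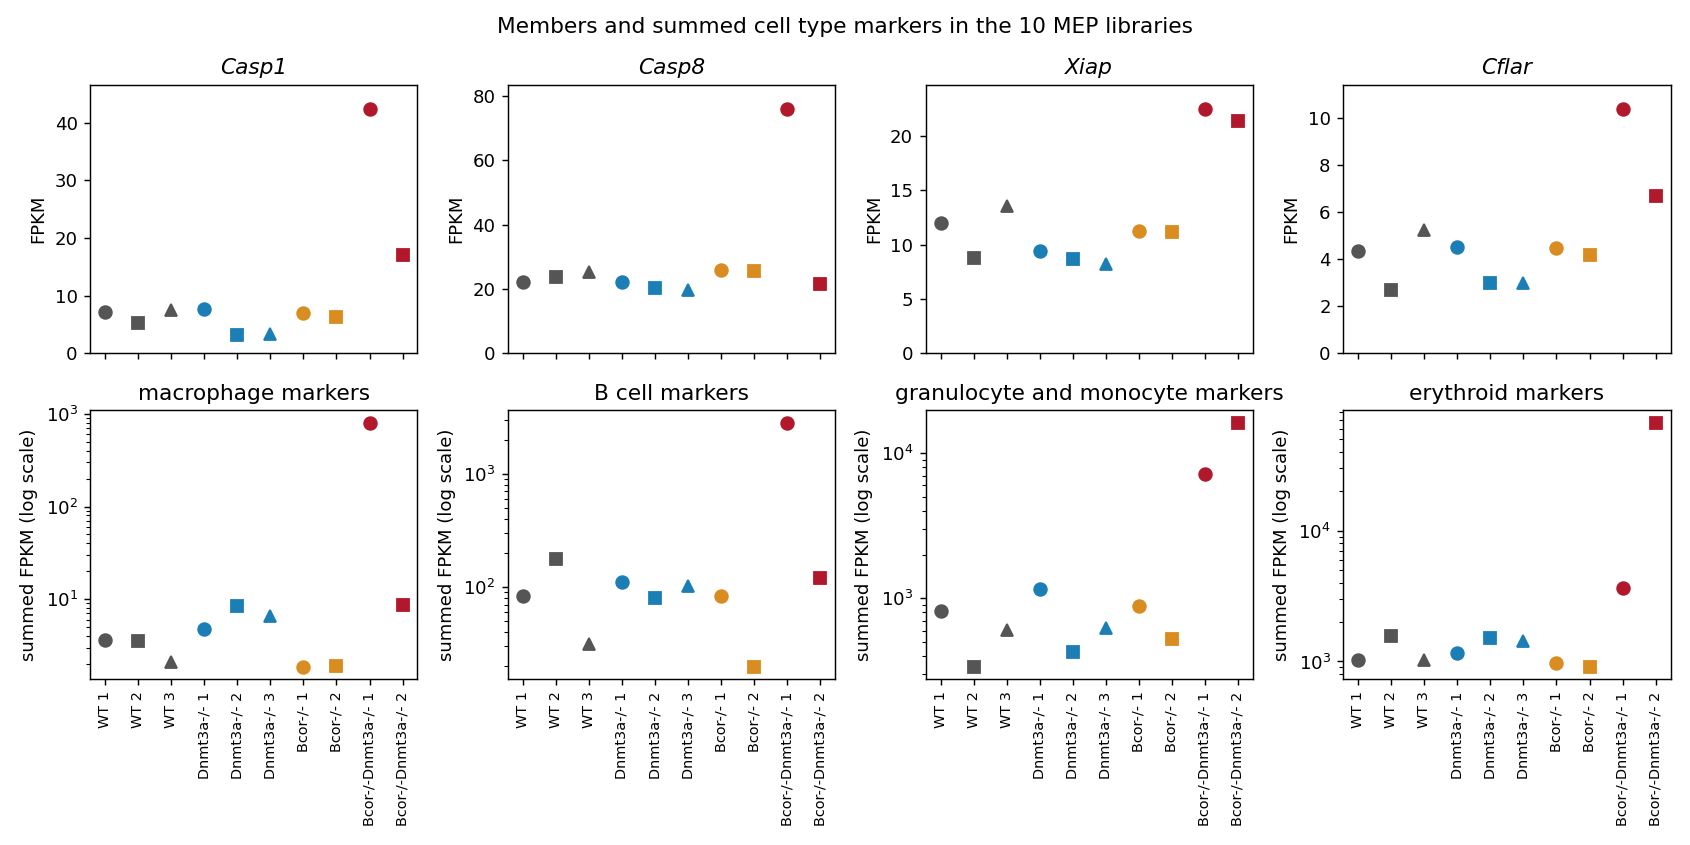
FPKM of Casp1, Casp8, Xiap and Cflar (top, linear axes) and summed FPKM of markers of 4 other cell types (bottom, log axes) in the 10 MEP libraries. Macrophage and B cell sums are highest in double knockout replicate 1, at 806 and 2842, as is Casp8 at 75.8, against 8.59, 122 and 21.5 in replicate 2, while Xiap is alike in both double knockout libraries.

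Other genes of these pathways, in 6 lists, gave the setting of the members. Of 48 tested in MEP, 12 were called higher and 6 lower in the double knockout, and of 58 tested in LSK, 9 were called higher and 7 lower, beside the shares of all genes given above. Of these, Fasl in both cell types, Tnfrsf25 in LSK and Il18 in MEP reached the mean of 1 FPKM only through the double knockout, so that the filter favoured their being higher, and they are left out of the counts of their lists below. In Bcor-/- the counts were 1 higher and 0 lower in MEP and 4 higher and 2 lower in LSK, and in Dnmt3a-/- none was called in either.

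Among other caspases, Casp4, next to Casp1, was called higher in MEP, with a log2 fold change of 1.38 (SE 0.42, limma adjusted p = 0.037), a call lost without double knockout replicate 1. In LSK, Casp12 was the one called of 4, at 0.278 and 1.20 FPKM against 10.9 to 12.8 in WT (log2 fold change -2.95, SE 0.28, limma adjusted p = 0.00013). It was also called lower in Bcor-/- LSK, at 6.68 and 3.34 FPKM (-1.16, SE 0.28, limma adjusted p = 0.041).

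Of the mitochondrial release and PIDDosome genes, 4 of 7 were called lower in MEP and none higher, with a median of -0.75. The largest were Endog, a mitochondrial nuclease (log2 fold change -1.08, SE 0.27, limma adjusted p = 0.016), and Htra2, a protease that relieves the block by XIAP (-0.96, SE 0.18, limma adjusted p = 0.0046). Htra2 had 67.7 and 85.7 FPKM against 142, 189 and 124 in WT, while Xiap rose in the same libraries. In LSK, 1 of 7 was higher, Cradd of the PIDDosome, at 8.12 and 6.97 FPKM against 3.10 to 5.17 (0.76, limma adjusted p = 0.047), and 1 was lower, Cycs, at 0.468 and 1.16 FPKM against 1.89 to 2.18 (-0.75, limma adjusted p = 0.11). Cycs has many processed copies in the genome, so its FPKM is uncertain. Both LSK calls were lost without double knockout replicate 1, and that of Cycs also without any one WT library.

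Of the death receptor genes that passed without the double knockout, 3 of 12 were called higher and 1 lower in MEP, and 1 of 14 higher and 4 lower in LSK. Fasl, the ligand of Fas, had 2.53 and 11.7 FPKM in double knockout MEP against 0.256 to 1.08 in WT, and 1.73 and 11.1 FPKM in LSK against 0.141 to 0.509. Its mean over the 8 other libraries was 0.461 FPKM in MEP and 0.240 in LSK. The receptor Tnfrsf21 rose in MEP, to 19.5 and 33.4 FPKM from 4.80 to 8.18 (limma adjusted p = 0.0022). It was also called higher in Bcor-/- MEP, at 14.3 and 15.1 FPKM (log2 fold change 1.15, SE 0.29, limma adjusted p = 0.41). In double knockout LSK it lay below WT instead, at 25.5 and 12.0 FPKM against 26.0 to 30.7. The receptor Tnfrsf25 had 0.940 and 9.20 FPKM in double knockout LSK, 0 to 0.303 in WT LSK and a mean of 0.272 over the 8 libraries of other genotypes. Ripk3 and Mlkl, the kinase and the effector of necroptosis that caspase-8 and c-FLIP hold in check, both fell in LSK. Ripk3 had 37.1 and 21.7 FPKM against 53.3 to 59.9 (-0.98, limma adjusted p = 0.0052), and Mlkl 14.4 and 8.34 against 27.4 to 30.2 (-1.31, limma adjusted p = 0.0011). In MEP, Ripk3 was called lower with replicate 2 alone outside the WT range (24.2 and 9.28 FPKM against 22.6 to 30.1, -0.78, limma adjusted p = 0.11), and the call was lost without that library or any one WT library.

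Of the inhibitor of apoptosis genes, relatives and partners of Xiap, 1 of 9 was called higher and 0 lower in MEP, and 1 higher and 1 lower of 9 in LSK. Birc3, which ubiquitinates proteins of the death receptor complexes, was the one called higher in both. In MEP it had 19.8 and 21.0 FPKM against 3.42 to 6.66 in WT (log2 fold change 1.92, SE 0.26, limma adjusted p = 0.0015). In LSK it had 23.1 and 77.1 FPKM against 14.8 to 20.4 (1.29, SE 0.42, limma adjusted p = 0.045), and was not called without replicate 2. The LSK gene called lower was Naip5, a sensor of the Nlrc4 inflammasome, at 4.52 and 14.4 FPKM against 13.2 to 16.5 (-0.81, limma adjusted p = 0.11), a call lost without replicate 1 or any one WT library.

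Of 12 inflammasome genes, the partners of Casp1, 5 were tested in MEP without Il18 and 11 in LSK. Of these, 3 were called higher in MEP and 3 in LSK, and none lower, with median log2 fold changes of 0.72 and 0.38. In MEP the DNA sensor Aim2 had 45.5 and 20.4 FPKM against 8.36 to 9.72 in WT (log2 fold change 1.68, SE 0.29, limma adjusted p = 0.0038). Il18, a cytokine precursor that caspase-1 cleaves, had 19.2 and 1.62 FPKM against 0.595 to 1.70 and a mean of 0.638 over the 8 libraries of other genotypes, so it was high in replicate 1 alone. In LSK Il1b, the other such precursor, had 3.22 and 11.2 FPKM against 0.839 to 1.16 (1.82, SE 0.46, limma adjusted p = 0.017), and Nlrc4 had 3.96 and 12.3 against 1.25 to 4.12 (1.16, limma adjusted p = 0.081), a call lost without replicate 2 or WT replicate 3. Aim2 and Casp1 were both high in each double knockout MEP library, with replicate 1 the higher for both.

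Of the caspase substrates, 2 of 10 were called higher in MEP and 1 of 11 in LSK, and none lower. In MEP these were the kinases Rock1 (35.9 and 71.4 FPKM against 24.9 to 32.2, log2 fold change 0.80, limma adjusted p = 0.042) and Stk4 (83.5 and 51.4 against 36.4 to 41.3, 0.74, limma adjusted p = 0.014). Rock1 was not called without replicate 2 and Stk4 not without replicate 1. In LSK it was Lmna, a lamin that caspase-6 cleaves, at 27.0 and 62.3 FPKM against 4.83 to 8.002 (2.58, SE 0.36, limma adjusted p = 0.00097).

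**Figure D4:**
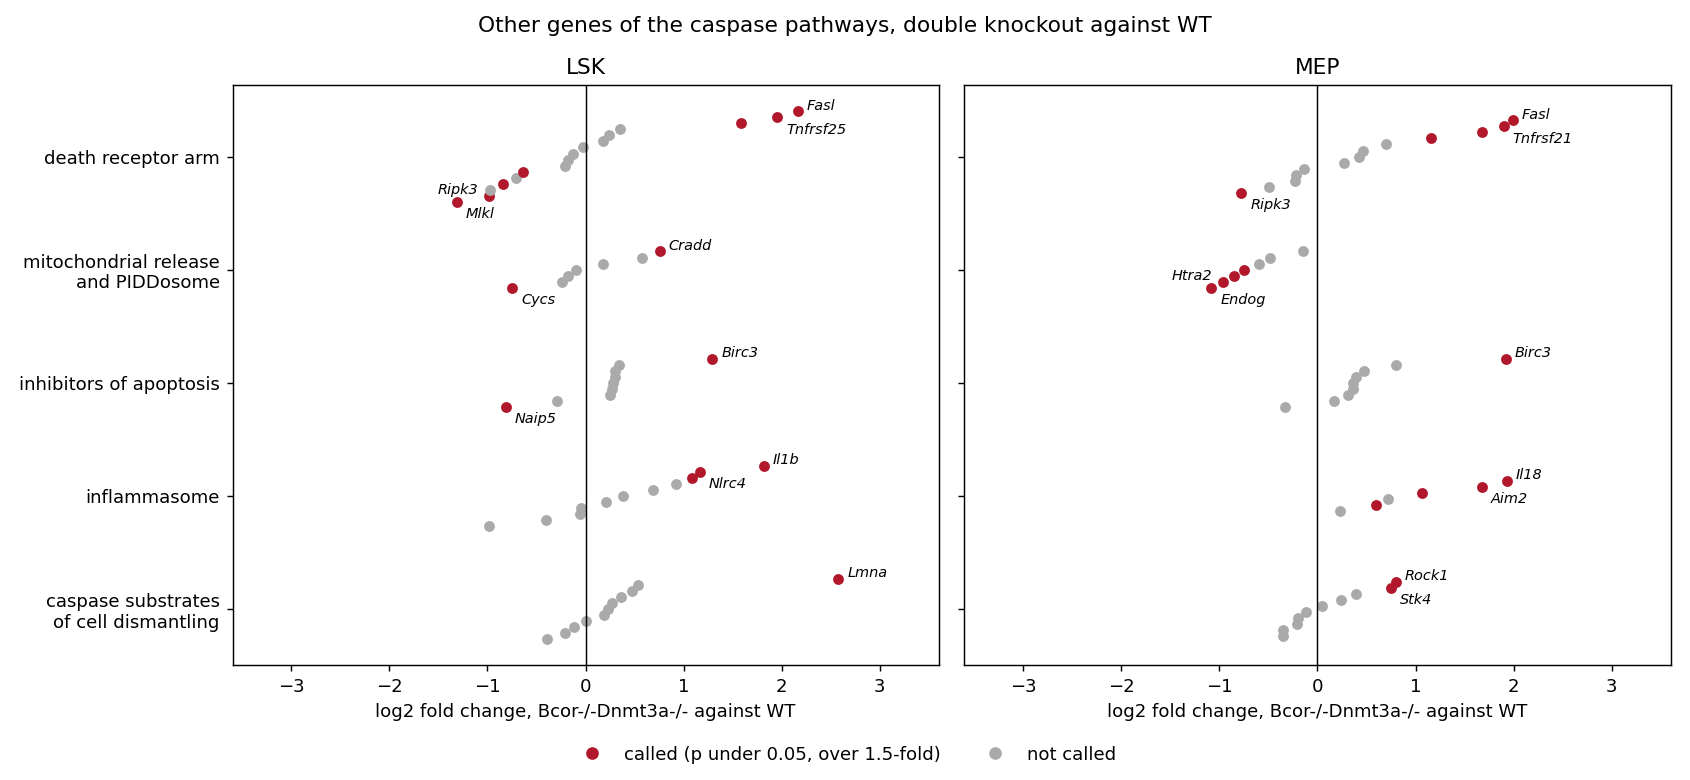
Double knockout minus WT, on the log2 scale, for each tested gene of 5 of the lists, in LSK (left) and MEP (right), with called genes in red and the genes of the text named, among them Fasl, Tnfrsf25 and Il18, which passed the filter through the double knockout alone. In MEP the mitochondrial release and PIDDosome genes lie below 0 and the inflammasome genes above it, with Birc3 at 1.92.

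The members also differed in how they varied together over all 20 libraries, with each cell type centred on its WT mean of log2(FPKM + 1). Across these libraries, which include the 4 far-lying double knockout libraries, the highest correlations between members were 0.89 for Casp1 with Cflar, 0.87 for Xiap with Cflar and 0.81 for Casp1 with Xiap. Casp2 and Casp8 correlated at 0.79. Casp9 was near 0 with Casp1, Casp8, Xiap and Cflar, from -0.05 to -0.01, and Casp6 was below 0 with Casp1 at -0.48. Among 10773 genes the ones most like each member were Lcp1 (0.96) and Stat4 (0.95) for Casp1, Gbp2 (0.97) and Ift81 (0.96) for Casp8, Ly75 (0.92) and Ctdspl2 (0.92) for Xiap, and Lasp1 (0.95) and Gfod1 (0.94) for Cflar. For the others they were Gabpb1 (0.94) and Lgalsl (0.93) for Casp2, Tmem127 (0.91) and Hs6st1 (0.87) for Casp9, Uggt1 (0.82) and Nck1 (0.81) for Apaf1, and Kat8 (0.73) for Casp6. These are descriptions over libraries that share mice and genotypes, with no test.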

How the data were processed

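PolyA RNA-seq of LSK and MEP was analyzed in 20 libraries. FPKM of 24315 genes were deposited by the authors in separate LSK and MEP tables, and the submitters' processing notes name STAR 2.5.1b, SAMtools 1.9, Cufflinks 2.2.1 and the build mm9. Annotation, strandedness and any scaling between libraries are not given in the sources used here. Read counts were not used here, so the depth and the counting error are unknown.

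From the deposited FPKM, log2(FPKM + 1) was computed for genes whose FPKM averaged 1 or more in a cell type, and limma 3.58.1 (R 4.3.3) with a mean-variance trend fitted 1 mean per genotype over all 4 genotypes. Calls used the unadjusted two-sided p under 0.05 and a fold change above 1.5, since the study names these thresholds but no test. Fold changes on this scale understate those of low genes. Effects were compared between cell types on the LSK minus MEP difference per mouse, paired by the mouse in the labels, at an adjusted p under 0.05. The procedure was tested on simulated data.

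The 8 genes, the lists of pathway genes and markers, the tests and the alternatives were chosen with earlier results of these data known. Named pathway genes are, per list, cell type and direction, up to 2 with the largest change among those called, and for each member the 2 genes of highest Pearson correlation, and some of these genes are not reported here. Alternatives were other filters (none, or an average of 5 FPKM), a pseudocount of 0.1, median centring, quantile normalization, a replicate block, a fit of the compared genotypes alone, no trend, adjusted p, a fold change above 2, 1 variance per genotype, no pairing by mouse, and leaving out each library. Python 3.11.15 with matplotlib 3.10.9 drew the figures.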

Additional observations from a re-analysis of the deposited data

Results flagged for a closer look

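The effect of the double knockout differed between LSK and MEP by a test of the difference itself for 4 of the 8 genes, where 20% of 10773 genes passed the same test. The effect in LSK minus the effect in MEP was -1.77 for Casp1, -0.88 for Casp2, -0.87 for Casp8 and -1.05 for Xiap on the log2 scale. With 1 variance per genotype 0 of 8 passed, and the differences of Casp1, Casp8 and Xiap, unlike that of Casp2, were lost without single mice. Casp2 was called in neither cell type, at -0.42 in LSK and 0.47 in MEP, whereas Casp1 and Xiap were called in MEP. For Casp8, double knockout replicate 1 exceeded replicate 2 in both cell types. No genotype had the 4 libraries that a search for outlying samples needs.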

How the results depend on the processing

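With 2 double knockout mice, 1 library decided several values. Leaving out each library in turn gave 1 to 2 members called in LSK and 2 to 5 in MEP for the double knockout against WT, and 0 to 2 and 2 to 6 against Bcor-/-. It gave 0 to 1 for Bcor-/- MEP and 0 to 1 for Dnmt3a-/- MEP against WT. The double knockout effect differed between cell types for 1 to 6 members. The shares of all genes in these refits are not given here. With all libraries they were 28.3% in LSK and 30.9% in MEP against WT, and 30.6% and 27.9% against Bcor-/-. They were 2.76% for Bcor-/- MEP, 0.412% for Dnmt3a-/- MEP and 20% for the difference between cell types. Without double knockout replicate 1 the LSK calls were Casp2 and Casp8 in place of Casp9. In LSK 0 members were called after quantile normalization, median centring or with a fold change above 2, against WT and against Bcor-/-, where 29.1% of genes were called against WT under either scaling, and 30.9% and 32% against Bcor-/-. Against Bcor-/- 0 were called also with 1 variance per genotype, beside 22.5% of LSK genes. With a fold change above 2, 1 member stayed called in MEP in each comparison, Casp1. Shares of all genes above this fold change are not given here. Effects differing between cell types numbered 2 with a pseudocount of 0.1 and 0 with 1 variance per genotype, again without a share of all genes here. At unadjusted p they numbered 1 each for Bcor-/- and Dnmt3a-/-, beside 17.9% and 3.9% of genes. The cause was not tested.

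Reversed signs concerned uncalled values. In LSK, Casp1 was -0.022 after quantile normalization and Cflar -0.091 after it and -0.086 after median centring, and in MEP Casp9 was -0.057 after quantile normalization. These scalings moved the median gene of the double knockout comparison from 0.02 to -0.17 or -0.14 in MEP and to -0.08 or -0.07 in LSK. Against Bcor-/- in MEP, quantile normalization gave Casp1, Casp6 and Xiap as calls, without Cflar. Over single libraries left out, the LSK values ran from -0.013 to 0.24 for Casp1, -0.68 to 0.45 for Casp8, -0.0087 to 0.39 for Apaf1, -0.46 to 0.17 for Xiap and -0.054 to 0.088 for Cflar, and the MEP values from -0.27 to 0.092 for Casp6 and -0.13 to 1.64 for Casp8. The cell type difference of Apaf1 ran from -0.23 to 0.013. Of 511 alternative values of the member results named in the text, 444 kept direction and side of the threshold, 38 lost the call, 14 gained it and 15 changed sign. Of 596 values of the other member results, 552 kept both, 3 gained the call and 41 changed sign. Of 376 values of the named pathway genes, 319 kept both and 57 lost the call.

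With the replicate number as a block, 1 member in LSK and 3 in MEP were called for the double knockout against WT, as without it. Of all genes, 27% in LSK and 31% in MEP were called with this block. Same-numbered libraries correlated in their deviations at -0.06 to 0.09 in LSK and -0.19 to 0.34 in MEP, where 8 of 13 pairs exceeded 0.1 and in LSK 0 of 13. Since not every pair did, the numbers were not taken to pair the libraries. As a hint from the data, 2 of 10 LSK and 7 of 10 MEP libraries correlated best with their own number. Where a genotype has 2 libraries, their deviations from its mean mirror each other, so these pairs and counts are not independent.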
